A study of Mus musculus with 18 samples.

Results

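Of the 53801 mouse genes counted in the series, 10 that act in cell-cell adhesion or mark epithelial and mesenchymal states were followed through exit from naive pluripotency. They were the cadherins Cdh1, Cdh2, Cdh3 and Cdh20, the epithelial genes Epcam, Esrp1, Krt8 and Krt18, and the mesenchymal genes Vim and Zeb2. They were picked by name for their function, except that Cdh20 had been noted for a large line-by-time difference in these same libraries, so its values are given below as a description with no test. All 10 genes passed the filter on low counts, along with 18469 genes in all, and 9 of the 10 were tested. Polyadenylated RNA was sequenced from 18 libraries, 3 in each of 6 groups. WT cells were the parental mouse embryonic stem cell (ESC) line E14TG2a. iEZR_CA cells were the same line carrying a doxycycline-inducible transgene for a constitutively active, phosphomimetic form of ezrin, the protein that tethers the cell membrane to cortical actin. Each line was sampled in 2i+LIF, which keeps cells naive (ESC), on gelatin and in parallel. Each was also sampled at 24 h (T24) and then at 48 h (T48) of such culture in N2B27 without the inhibitors or LIF. Doxycycline was given to iEZR_CA cells from about 16 h before exit and none is stated for WT, so the transgene, the drug and any difference between the lines that preceded them cannot be told apart. Whether iEZR_CA is 1 clone is not stated in the sources used here. Reads assigned to genes ranged from 10940752 to 33276622 per library.

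Cadherins are transmembrane proteins whose outer parts bind cadherins of neighboring cells and whose tails bind catenins and, through them, the actin cortex. Cdh1 (E-cadherin) is the main cadherin of naive ESCs and of epithelia, Cdh3 is P-cadherin and Cdh2 is N-cadherin, and a shift from E- to N-cadherin is a known mark of epithelial-mesenchymal transition. Epcam is an adhesion molecule of epithelial and pluripotent cells, Esrp1 directs epithelial splicing, Krt8 and Krt18 pair as the keratin filaments of simple epithelia, Vim is the intermediate filament of mesenchymal cells, and Zeb2 is a transcriptional repressor of epithelial genes.

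The labels held up against the transgene. Ezr, the gene for ezrin (ENSMUSG00000052397, GRCm38 chr17:6738041-6782784), had 24819 ± 499 normalized counts in iEZR_CA ESCs against 11763 ± 277 in WT ESCs (SD, n = 3). The ratio of iEZR_CA to WT was 2.11 in ESCs, 2.70 at T24 and 1.61 at T48. No library of one line overlapped the other at any stage (exact permutation test, 2-sided, p = 0.1 at each stage, the smallest that 3 against 3 libraries allow). Reads from the transgene and from the endogenous gene could not be separated in these counts. The 6 pluripotent cell markers fixed for the check (Pou5f1, Sox2, Nanog, Sall4, Lin28a and Utf1) were far above the floor in every group, with a summed level between 47440 and 64404. All 6 were called lower in iEZR_CA ESCs, most of all Lin28a (259 against 1591). At T24 and again at T48, 2 were higher and 3 lower. A normalized count is a read count divided by the DESeq2 size factor of its library, and the floor of detection is 3 counts per library. Fold changes and adjusted p-values come from edgeR's quasi-likelihood test over all 18 libraries, with Benjamini-Hochberg adjustment over all genes tested. A gene is called where its adjusted p is under 0.05.

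At each stage most of the 9 tested genes differed between the lines, as did most of the 18469 genes tested. At each of the 3 stages, however, spike-in scaling left most of the 18469 genes not called (counts at the end). In ESCs, 4 were higher and 3 lower in iEZR_CA, where 54.5% of all genes tested were called (26.4% higher and 28.1% lower). At T24, 5 were higher and 4 lower, where 60.9% of all genes were called (30.8% higher and 30.1% lower). At T48 only Cdh3 was higher and 7 were lower, where 61.1% of all genes were called (31.0% higher and 30.1% lower). With calls this frequent, the size and direction of each gene carry more than the count. These shares of all genes also stand beside the counts of the related lists below. In bulk RNA, fewer cells of a type and less RNA per cell cannot be told apart. Differences of more than 2-fold were found for 4, 5 and 4 of the 9 genes at the 3 stages, where 11.9%, 14.9% and 16.1% of all genes had one.

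**Figure D1:**
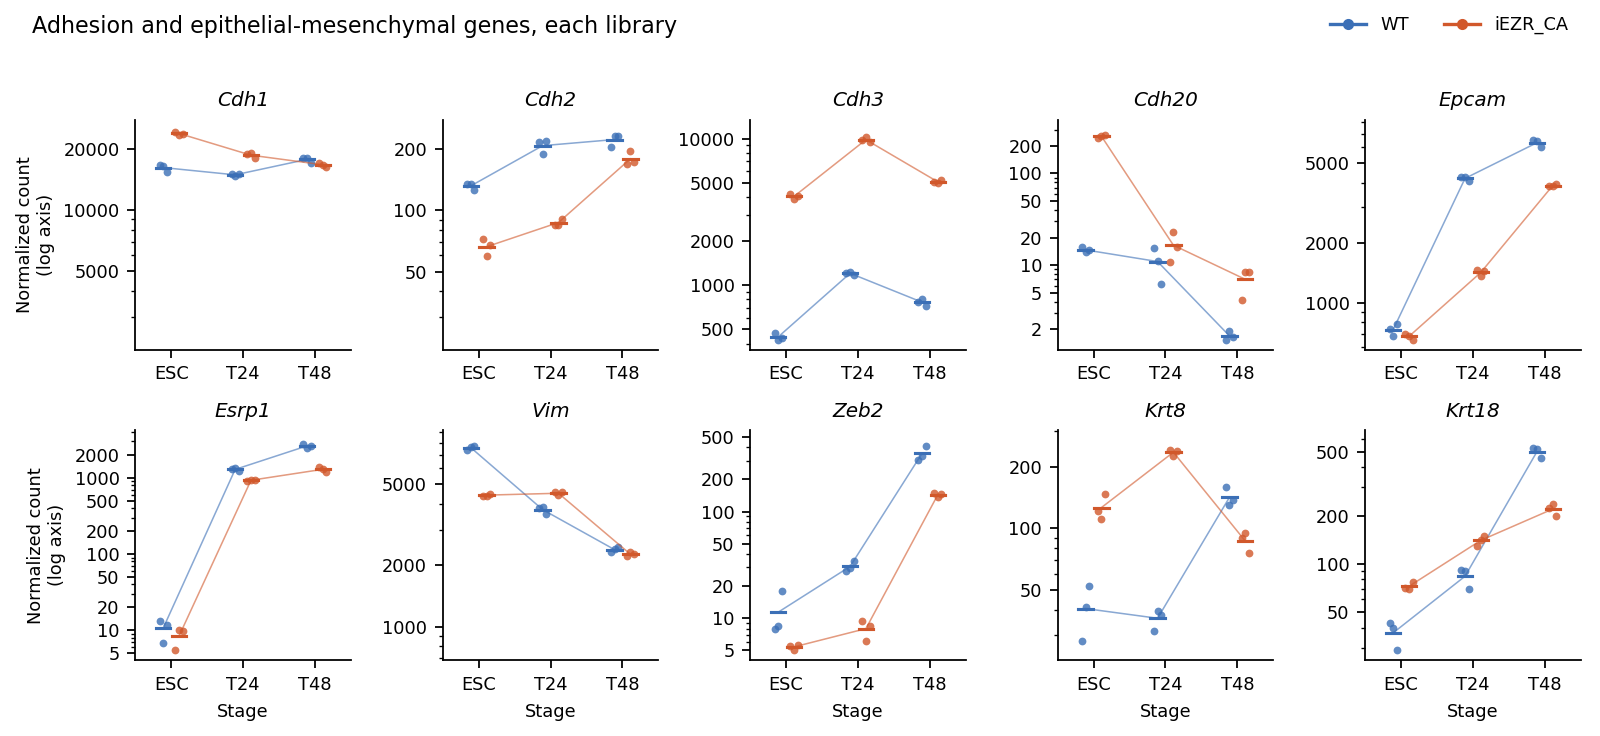
Normalized counts (log axis) of the 10 genes at each stage, with a point for each library, a bar for the mean of 3 libraries and a thin line joining the means. Cdh3 is higher in every iEZR_CA library than in any WT library, Epcam and Esrp1 rise from ESC to T48 in both lines, and Cdh20 stands at 243 to 265 in iEZR_CA ESCs and at 22.8 or less elsewhere.

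Cdh1 and Cdh3 lie close together on chromosome 8 and were the main classical cadherins measured. Cdh3 (ENSMUSG00000061048, GRCm38 chr8:106510891-106557297, plus strand) had 471, 425 and 438 normalized counts in the 3 WT ESC libraries and 4169, 3903 and 4050 in the 3 iEZR_CA ESC libraries. At T24 the WT libraries had 1205, 1239 and 1181 and the iEZR_CA libraries 9817, 10253 and 9509.7. At T48 the WT libraries had 764, 809 and 728 and the iEZR_CA libraries 5032, 4969 and 5241. The lowest iEZR_CA library thus lay above the highest WT library at every stage, and both lines had their highest values at T24 and their lowest in ESCs. The line difference on the log2 scale was 3.18 ± 0.041 (SE) in ESCs (edgeR adjusted p = 3.9e-61), 3.03 ± 0.035 at T24 and 2.75 ± 0.038 at T48, or 9.09-fold, 8.16-fold and 6.63-fold in the means. All 6 groups of Cdh3 were apart, in the order iEZR_CA T24, iEZR_CA T48, iEZR_CA ESC, WT T24, WT T48 and WT ESC.

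Cdh1 (ENSMUSG00000000303, chr8:106603351-106670246, plus strand) moved far less. WT libraries had 16612, 16422 and 15389 normalized counts in ESCs, 15074, 14597 and 14942 at T24, and 18083, 17976 and 17064 at T48. iEZR_CA libraries had 24072, 23430.4 and 23699 in ESCs, 18732, 18990.2 and 17981 at T24, and 16973, 16679 and 16338 at T48. In iEZR_CA the level fell from ESC to T24 (−0.36 ± 0.026) and from T24 to T48 (−0.15 ± 0.026), but neither fall was called with spike-in scaling (−0.21 and −0.05). In WT it was lowest at T24 and highest at T48. The line difference was 0.55 ± 0.026 on the log2 scale in ESCs (edgeR adjusted p = 1.9e-28), 0.32 ± 0.026 at T24 (adjusted p = 1.6e-17) and −0.08 ± 0.026 in the T48 libraries (adjusted p = 0.0052). The last call was lost when libraries were scaled to the spike-ins (−0.028), when no filter on low counts was set (−0.05) or without the third iEZR_CA T48 library (−0.065). The small fall of Cdh1 from ESC to T24 in WT (−0.13) was 0.0031 when scaled to the spike-ins, so its direction depends on the scaling.

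Chromosome 8 as a whole sat slightly higher in iEZR_CA. The median line difference over its 958 tested genes was 0.18 in ESCs, 0.21 at T24 and 0.18 at T48. Over all genes tested it was −0.0092, −0.002 and 0.00. The 56 tested genes within 1 Mb of the Cdh3 and Cdh1 pair had medians of 0.22, 0.18 and 0.15. Its part in the Cdh1 and Cdh3 differences was not tested. The medians of the other 6 chromosomes that carry the 10 genes lay between −0.083 and 0.025.

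Divided by exon length, so that levels of different genes can be set side by side, Cdh1 was the most abundant of the 3 cadherins in every group. In WT it made up 96.8% ± 0.14 of the summed Cdh1, Cdh2 and Cdh3 level per kb in ESCs, 91.5% ± 0.23 at T24 and 95.0% ± 0.17 at T48 (SD, n = 3). In iEZR_CA its share was 84.8% ± 0.26, 64.2% ± 0.35 and 75.5% ± 0.80. Cdh3 made up most of the remainder, with 2.78%, 7.76% and 4.29% in WT and 15.1%, 35.6% and 24.0% in iEZR_CA. The Cdh2 share was below that of Cdh3 in all 6 groups, from 0.134% in iEZR_CA ESCs to 0.724% in WT at T24. The Cdh2 values depend on the length taken: with the longest transcript in place of all exons its share ran from 0.217% to 1.16% in the same groups, still below that of Cdh3, and its level per kb was up to 45.9, in WT at T48, in place of 27.6. The summed level was 3646 ± 147 normalized counts per kb in WT ESCs, 3552 ± 50.9 at T24 and 4074 ± 129 at T48, and 6119 ± 101, 6319 ± 196 and 4824 ± 48.5 in iEZR_CA, so the 3 cadherins together were more abundant in iEZR_CA at each stage with no overlap of the mean ± SD ranges.

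**Figure D2:**
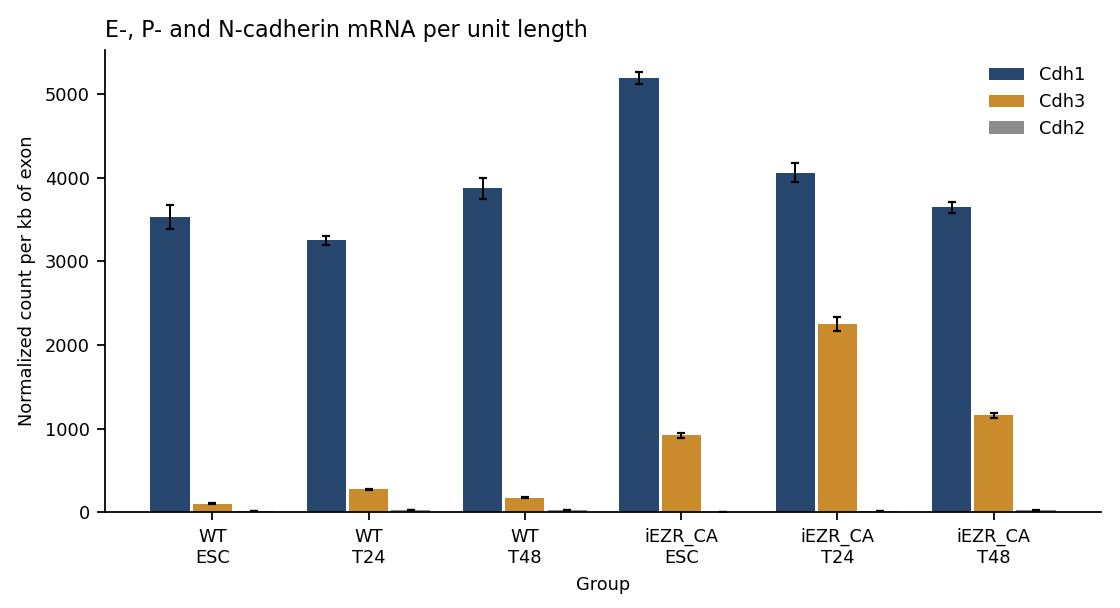
Normalized counts per kb of exon (linear axis from 0) of Cdh1, Cdh3 and Cdh2 in the 6 groups, with bars for the mean and error bars for the SD of 3 libraries. Cdh3 reaches 2249 per kb in iEZR_CA at T24, against 276 in WT, while Cdh2 is at 27.6 or less with this length (45.9 or less with the longest transcript).

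Cdh2 (ENSMUSG00000024304, chr18:16588877-16809246, minus strand) was scarce in both lines and rose through exit. The WT libraries had 135, 134 and 126 normalized counts in ESCs, 217, 188 and 218 at T24, and 205, 231 and 231 at T48. The iEZR_CA libraries had 72.0, 59.4 and 67.2, then 85.0, 85.1 and 91.0, then 169, 195 and 173. Every iEZR_CA library was below every WT library of its stage, and the gap was narrowest at T48. The line difference was −1.01 ± 0.13 in ESCs (edgeR adjusted p = 3.6e-10), −1.25 ± 0.11 at T24 and −0.29 ± 0.094 at T48 (adjusted p = 0.0057), the last not called with spike-in scaling (−0.25). From ESC to T48 Cdh2 rose by 0.73 ± 0.099 in WT and by 1.45 ± 0.12 in iEZR_CA, a difference between the lines of 0.72 ± 0.16 (edgeR adjusted p = 1.3e-04). In WT most of that rise lay before T24 (0.65 ± 0.099), and T24 and T48 overlapped. In iEZR_CA the step from T24 to T48 was 1.04 ± 0.11, and the step from ESC to T24 (0.41 ± 0.14, adjusted p = 0.012) was not called without the second iEZR_CA ESC library (0.32). Over the same libraries Cdh1 mRNA lay between 14597 and 24072 normalized counts.

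Cdh2 is also a cadherin of neural and of mesodermal cells, and markers of both differed between the lines. Of 6 early neural markers 4 were tested, and in ESCs of iEZR_CA 0 were higher and 3 lower, with 1 and 1 at T24 and 0 and 3 at T48. Their summed level was 2594 ± 94.3, 1329 ± 39.6 and 2053 ± 11.4 normalized counts in WT and 1122 ± 54.3, 1616 ± 8.92 and 927 ± 13.5 in iEZR_CA at the 3 stages (SD, n = 3). Tubb3, a neuronal tubulin and the most abundant of them, was lower in ESCs (−1.28 ± 0.043) and at T48 (−1.53 ± 0.050) and higher at T24 (0.88 ± 0.049). Sox1, a transcription factor of early neural cells, was lower at each stage, by −0.63 ± 0.14, −1.27 ± 0.094 and −0.77 ± 0.085. Pax6 was called in ESCs only (−0.48 ± 0.16) and Zic1 at T48 only (−1.48 ± 0.40). Neurog2 was at the floor in all 6 groups, and Hes5 in all but WT ESCs. Of 7 primitive streak and mesoderm markers 5 were tested, and in ESCs of iEZR_CA 1 was higher and 2 lower, with 3 and 0 at T24 and 1 and 0 at T48. Their summed level was 578 ± 27.6, 146 ± 6.56 and 140.4 ± 2.54 in WT and 704 ± 30.0, 183 ± 16.1 and 268 ± 18.3 in iEZR_CA. Gsc, the most abundant in ESCs, had a mean of 556 in iEZR_CA and 365 in WT there. At the later stages its mean was 15.1 or less. Eomes (−0.56 ± 0.11) and T (−1.80 ± 0.40) were lower in iEZR_CA ESCs, and Eomes was higher at T48 (1.15 ± 0.10). Msgn1 was at the floor in all 6 groups, and Mesp1 in all but WT ESCs. The part of such cells in the Cdh2 differences was not tested.

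Cdh20, a type II classical cadherin (ENSMUSG00000050840, chr1:104768529-104995481, plus strand), was abundant in 1 group only. The 3 iEZR_CA ESC libraries had 243, 252 and 265 normalized counts, and the 3 WT ESC libraries 15.7, 13.8 and 14.5. At T24 the values were 10.8, 22.8 and 15.9 in iEZR_CA and 15.5, 11.1 and 6.31 in WT, and these ranges overlapped. At T48 they were 4.18, 8.46 and 8.39 in iEZR_CA, and WT had 2 or fewer reads in each library, under the floor. The mean in ESCs was 17.3-fold higher in iEZR_CA, and within iEZR_CA the mean was 15.3-fold lower at T24 and 36.1-fold lower at T48 than in ESCs. Against a WT T48 group set at the floor of 3 counts per library, the iEZR_CA mean at T48 was at least 2.00-fold higher. No test is attached to these values because the gene was picked for them. The 250 bases before its start site are shown as a description only.

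Sequence upstream of Cdh20 (RefSeq, GRCm38.p6, chr1:104768270-104768519, plus strand, 5′ to 3′), in which the letters searched for below do not occur.
Cdh20: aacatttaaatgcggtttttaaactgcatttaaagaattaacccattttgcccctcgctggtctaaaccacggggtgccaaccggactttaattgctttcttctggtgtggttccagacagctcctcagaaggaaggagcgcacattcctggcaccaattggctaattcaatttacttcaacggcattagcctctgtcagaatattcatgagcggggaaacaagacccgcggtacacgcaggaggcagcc

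The rest of the classical cadherin family was mostly silent or low. The whole family has 18 genes, with Cdh1, Cdh2, Cdh3 and Cdh20 among them. Of the 18, 10 passed the filter, and the highest value among the other 8 in any library was 17.2 normalized counts. The 9 tested without Cdh20 still include Cdh1, Cdh2 and Cdh3, so the counts are not of the rest alone. Of these 9, in ESCs of iEZR_CA 3 were higher and 2 lower, with 3 and 4 at T24 and 2 and 6 at T48. Their median log2 differences were 0.24, −0.05 and −0.29, against −0.0092, −0.002 and 0.00 over all genes. With spike-in scaling 5 of the 9 were called at T48. Cdh4 (R-cadherin) was higher in iEZR_CA in ESCs (1.10 ± 0.12) and at T24 (1.63 ± 0.095), with T24 means of 459 against 146. At T48 Cdh4 overlapped between the lines and was not called (0.03 ± 0.098). Cdh24 was lower at all 3 stages, by −0.72 ± 0.12, −0.69 ± 0.11 and −0.99 ± 0.10 on the log2 scale. Cdh10 was at the floor in the ESCs of both lines and reached 217 ± 8.05 normalized counts in WT and 99.3 ± 17.5 in iEZR_CA at T48, a line difference of −1.12 ± 0.12. Outside the classical group, 5 of 10 genes with a cadherin symbol were tested, and 1, 3 and 4 of them were higher in iEZR_CA in ESCs, at T24 and at T48, with 1 lower in ESCs and 0 lower at T24 and T48. Cdhr1, a photoreceptor cadherin, had the highest mean count of these and was higher at T24 (1.38 ± 0.057) and T48 (1.99 ± 0.081), and Cdh23, a cadherin of the inner ear hair cell, was higher at T48 (2.00 ± 0.27) and lower in ESCs (−0.85 ± 0.37, edgeR adjusted p = 0.043). The ESC call of Cdh23 was lost with spike-in scaling, with no filter on low counts, with the DESeq2 Wald test and without any 1 of 5 ESC libraries, the exception being the first WT library, at values from −0.97 to −0.68.

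The catenins named below, which tie cadherins to actin, differed less between the lines than Cdh3 did. Ctnna2 was at the floor in iEZR_CA at T48, against 13.3 normalized counts in WT, and cannot be ranked. Of 12 tested adherens junction genes, in ESCs of iEZR_CA 5 were higher and 2 lower, with 3 and 5 at T24 and 4 and 6 at T48, with medians of −0.05, −0.04 and −0.20. With spike-in scaling 3 of the 12 were called in ESCs. Ctnnb1 (β-catenin), with the highest mean count of the list, differed by 0.10 ± 0.024 in ESCs and 0.19 ± 0.024 at T48, and neither call held with spike-in scaling (0.15 and 0.25). Ctnna1 (αE-catenin) was higher by 0.24 ± 0.024, 0.27 ± 0.024 and 0.77 ± 0.025 at the 3 stages, the first not called with spike-in scaling (0.30). Jup (plakoglobin), which serves adherens junctions and desmosomes, was higher by 0.32 ± 0.027, 0.61 ± 0.027 and 0.96 ± 0.030, and its fall from ESC to T48 was from 5422 to 1882 normalized counts in WT and from 6791 to 3652 in iEZR_CA (interaction 0.65 ± 0.041, edgeR adjusted p = 3.1e-22). Ctnnd2 (δ-catenin) was higher in ESCs and at T24 (0.51 ± 0.081 and 0.93 ± 0.11) and lower at T48 (−0.74 ± 0.16).

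Of the desmosome genes, Dsg2 and Dsp fell less through exit in iEZR_CA. Dsc3 went the other way, from a mean of 53.4 normalized counts in iEZR_CA ESCs to the floor at T48, with WT means of 2.71 and 5.32. Of 7 desmosome genes tested, 3 were higher and 1 lower in ESCs of iEZR_CA, with 4 and 1 at T24 and 3 and 4 at T48. With spike-in scaling fewer were called in ESCs, and 4 at T48. Without the first WT T48 library 4 were called at T48. The change from ESC to T48 was more positive in iEZR_CA for 2 of the 7 and less positive for 3. Dsg2 (desmoglein 2) had 3741 ± 282 normalized counts in WT and 3806 ± 75.4 in iEZR_CA ESCs, and its line difference was then 1.29 ± 0.043 at T24 and 1.63 ± 0.055 at T48. Dsp (desmoplakin) was higher by 1.02 ± 0.061 at T24 and 0.54 ± 0.061 at T48, and Pkp4, the gene of the list with the highest mean count, by 0.44 ± 0.032 at T24.

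Tight junction genes went in both directions. Of 16 tested, in ESCs of iEZR_CA 5 were higher and 6 lower, with 3 and 6 at T24 and 3 and 8 at T48, with medians of 0.02, −0.07 and −0.24. With spike-in scaling fewer were called in ESCs, and 5 at T24. Tjp1, a scaffold gene, differed by −0.23 ± 0.034 in ESCs and by −0.32 ± 0.033 at T24, and neither call held with spike-in scaling (−0.17 and −0.24). Cldn7 rose in WT from 44.0 ± 2.65 normalized counts at T24 to 277 ± 37.4 at T48 and was lower in iEZR_CA at T48 (−2.51 ± 0.13), where it had 48.4 ± 6.45. Cldn2, a pore-forming claudin at the floor in both ESC groups, was higher in iEZR_CA at T24 (0.99 ± 0.15) and at T48 (3.73 ± 0.15, with 270 against 20.1).

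Epcam (ENSMUSG00000045394, chr17:87635979-87651129, plus strand) overlapped between the lines in ESCs and rose less by T24 in iEZR_CA. The ESC libraries had 737, 679 and 785 normalized counts in WT and 699.8, 685 and 652 in iEZR_CA, which overlapped (−0.11 ± 0.050, an edgeR adjusted p that rounds to 0.05 and was not called). It was called without the second WT ESC library (−0.17) and, at −0.11, without the third WT T24, the first or the third WT T48 or the second iEZR_CA T24 library. At T24 the WT libraries had 4265, 4258 and 4062 and the iEZR_CA libraries 1457, 1357 and 1446. At T48 the WT libraries had 6543, 6438 and 6002 and the iEZR_CA libraries 3857, 3822 and 3911. Every iEZR_CA library at T48 was thus below every WT library at T24. Between the lines Epcam differed by −1.57 ± 0.037 at T24 (edgeR adjusted p = 2.8e-43) and by −0.70 ± 0.033 in T48 libraries (adjusted p = 6.8e-28). From ESC to T24, Epcam rose by 2.51 ± 0.040 in WT and by 1.05 ± 0.046 in iEZR_CA, and the difference of these, −1.46 ± 0.062, had an edgeR adjusted p of 7.6e-29.

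The promoter of Epcam is shown because it holds 1 copy each of CACCTG and CAGGTG, each the reverse complement of the other, which are the core of the known ZEB and SNAI binding motif. A match of letters is a description and not a site. In the 250 bases before the RefSeq start site, CACCTG begins 187 bases and CAGGTG 19 bases before the start. Either form occurs at least 1 time in 17.2% of the 32851 RefSeq promoter windows of this length, and at least 2 times in 2.06%. A promoter was matched for 6 of the 10 genes (Cdh20, Epcam, Vim, Krt8, Krt18 and Zeb2). Krt8 and Krt18 had 1 match each and Vim, Zeb2 and Cdh20 had 0.
Epcam (RefSeq, GRCm38.p6, chr17:87635729-87635978, plus strand, 5′ to 3′, matches in capitals): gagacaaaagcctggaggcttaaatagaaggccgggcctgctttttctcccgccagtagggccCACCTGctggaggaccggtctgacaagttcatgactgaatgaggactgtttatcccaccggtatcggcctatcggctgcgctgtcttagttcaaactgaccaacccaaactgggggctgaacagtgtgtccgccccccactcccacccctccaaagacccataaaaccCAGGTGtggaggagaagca

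Esrp1 (ENSMUSG00000040728, chr4:11331933-11386783, minus strand) went from near absence to abundance in both lines. It had 13.5, 6.89 and 11.9 normalized counts in WT ESCs and 5.54, 10.04 and 9.80 in iEZR_CA ESCs. At T24 it had 1311, 1330.4 and 1212 in WT and 913, 937 and 929 in iEZR_CA. At T48 it had 2747, 2488 and 2601 in WT and 1390.1, 1289 and 1188 in iEZR_CA. The lines overlapped in ESCs and were apart at T24 and T48, and the iEZR_CA level at T48 overlapped the WT level at T24. The line difference was −0.29 ± 0.38 in ESCs (edgeR adjusted p = 0.56), −0.48 ± 0.050 at T24 (adjusted p = 9.1e-13) and −1.01 ± 0.044 in the T48 libraries (adjusted p = 4.4e-29). The rise from ESC to T48 was 7.95 ± 0.099 in WT and 7.22 ± 0.12 in iEZR_CA. The difference between these rises, −0.73 ± 0.40, was not called, and with about 10 counts in ESCs it was measured with a wide error.

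Of the 16 epithelial regulators, to which Epcam and Esrp1 belong, all were tested, and in ESCs of iEZR_CA 6 were higher and 5 lower, with 8 and 7 at T24 and 4 and 9 at T48. With spike-in scaling 6 were called in ESCs. Grhl2, a transcription factor that activates epithelial adhesion genes, had 89.9, 105 and 97.9 normalized counts in WT ESCs, 3446, 3527 and 3424 at T24, and 1845, 1749 and 1827 at T48. In iEZR_CA it had 182, 182 and 147, then 650.2, 621 and 678, then 1629, 1619.6 and 1511. It thus peaked at T24 in WT and was still rising from T24 to T48 in iEZR_CA, with a line difference of 0.81 ± 0.099 in ESCs, −2.42 ± 0.043 at T24 (edgeR adjusted p = 1.2e-52) and −0.18 ± 0.040 at T48, the latter not called with spike-in scaling (−0.13). Prss8 (prostasin, a membrane protease) was lower at all 3 stages, by −1.66 ± 0.21, −2.62 ± 0.15 and −1.79 ± 0.082. Klf5, a transcription factor of naive cells and epithelia that fell through exit in both lines, was higher in iEZR_CA at T24 (0.52 ± 0.035) and T48 (0.93 ± 0.052) and differed by −0.08 ± 0.030 in ESCs, a call lost with spike-in scaling (−0.023), no filter on low counts, the DESeq2 Wald test and without any 1 of 3 of the ESC libraries, and Spint1, an inhibitor of membrane proteases, was higher at T24 (0.61 ± 0.034).

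**Figure D3:**
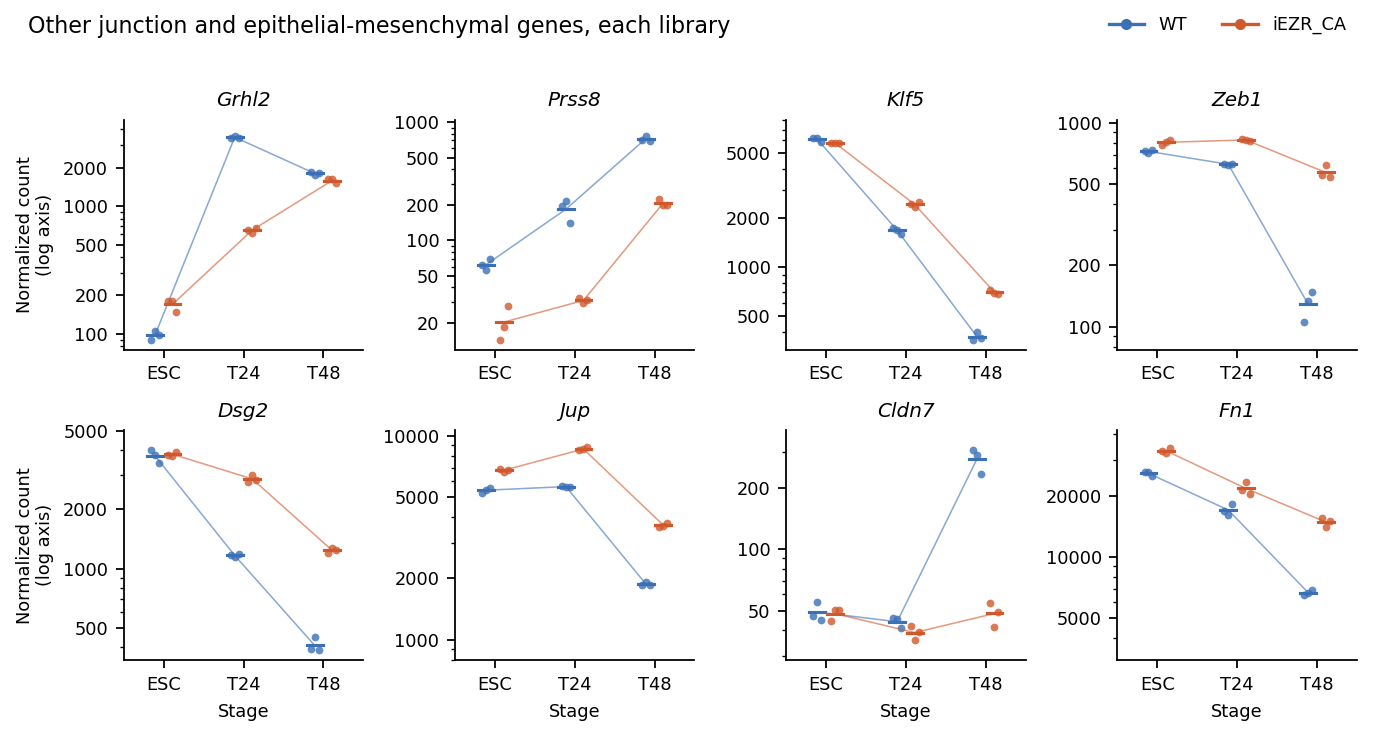
Normalized counts (log axis) of 8 further junction and epithelial-mesenchymal genes at each stage, with a point for each library, a bar for the mean of 3 libraries and a thin line joining the means. Grhl2 and Prss8 are lower in iEZR_CA at T24, Klf5, Zeb1, Dsg2, Jup and Fn1 fall less in iEZR_CA than in WT by T48, and Cldn7 rises in WT at T48 only.

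Krt8 (ENSMUSG00000049382, chr15:101996698-102004482, minus strand) and Krt18 (ENSMUSG00000023043, chr15:102028180-102032027, plus strand), whose products pair in filaments, were higher in iEZR_CA in ESCs and at T24 and lower at T48. Krt8 had 28.1, 41.3 and 51.9 normalized counts in WT ESCs and 122, 111 and 147 in iEZR_CA ESCs. At T24 it had 31.6, 39.4 and 37.8 in WT and 243, 227 and 240.1 in iEZR_CA. At T48 it had 159, 130.0 and 137 in WT and 89.5, 95.4 and 75.5 in iEZR_CA. The lines did not overlap at any stage, and their order at T48 was the reverse of that before. Krt8 differed between the lines by 1.58 ± 0.15 in ESCs (edgeR adjusted p = 5.7e-14), 2.73 ± 0.14 at T24 (adjusted p = 1.0e-26) and −0.71 ± 0.13 in the T48 libraries (adjusted p = 1.7e-06).

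Krt18 had 42.7, 39.8 and 28.9 normalized counts in WT ESCs, 92.1, 89.8 and 69.4 at T24, and 526, 522 and 454 at T48. In iEZR_CA it had 70.9, 69.5 and 77.0, then 129, 141 and 150.1, then 222, 237 and 200.2. It rose at each step in both lines, without overlap between the lines, and WT was the lower line up to T24 and the higher at T48. Krt18 differed between the lines by 0.96 ± 0.17 in ESCs (edgeR adjusted p = 2.0e-06), 0.71 ± 0.12 at T24 (adjusted p = 7.6e-07) and −1.16 ± 0.082 in the T48 libraries (adjusted p = 3.9e-20). Krt18 rose through exit in iEZR_CA while Krt8 there ended lower at T48 than in ESCs (−0.50 ± 0.13, edgeR adjusted p = 6.9e-04, not called with spike-in scaling at −0.28). Krt7 and Krt19, the other tested keratins of simple epithelia, had the same signs at the 3 stages at lower counts, with Krt19 at 2.98 ± 0.41, 2.00 ± 0.44 and −1.22 ± 0.32, so all 4 tested keratins were called at each stage. The calls of Krt7 in ESCs and at T48 were less firm. In ESCs its call was lost with the DESeq2 Wald test (0.81) and without the second WT (0.59) or the first iEZR_CA (0.49) library. At T48 it was lost with spike-in scaling (−0.57), with the DESeq2 Wald test (−0.56) and without the first WT (−0.35) or the first (−0.56) or the second (−0.62) iEZR_CA library. Both Krt8 and Krt18 have many related copies in the genome, and reads that map to several places were not counted, so their levels are uncertain. Exons of Krt8 also overlap a gene on the opposite strand by 101 bases, those of Esrp1 by 127 and those of Zeb2 by 657, and whether the counting used strand is not stated in the sources used here.

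Markers of trophoblast, another keratin-bearing lineage, differed between the lines, in both directions in ESCs and at T48. Of 7 such genes 6 were tested, and in ESCs of iEZR_CA 4 were called higher and 1 lower, with 4 and 0 at T24 and 3 and 2 at T48. The 4 called higher in ESCs include Hand1, which was at the floor in both lines there, and Krt7, whose ESC call was not firm, besides Gata3 and Ascl2. The summed level of the list was 2963 ± 39.1, 212 ± 9.07 and 272 ± 30.6 normalized counts in WT and 2058 ± 83.7, 917 ± 27.1 and 763 ± 19.4 in iEZR_CA at the 3 stages. Tfap2c, the most abundant of them over all libraries and a gene that naive ESCs also express, was lower in iEZR_CA ESCs, at 1758 against 2855 (−0.71 ± 0.040), and higher at T24 (1.19 ± 0.12) and T48 (0.68 ± 0.096). Gata3 was at 138, 238 and 189 in iEZR_CA against 28.1, 40.3 and 16.2 in WT, and Ascl2 at 93.7, 526 and 339 against 37.8, 101 and 67.0. Of the defining markers, Elf5 was at the floor in all WT groups and in iEZR_CA at T48, Hand1 in the ESCs of both lines, and Cdx2 at T24 in both lines. Cdx2 was not called in ESCs (0.11 ± 0.31) and was lower in iEZR_CA at T48 (−1.04 ± 0.37). Krt7 is on this list and on that of the keratins. The part of such cells in the keratin differences was not tested.

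Vim (ENSMUSG00000026728, chr2:13573927-13582826, plus strand) fell from T24 to T48 in both lines, by 0.66 on the log2 scale in WT and by 0.99 in iEZR_CA, and from ESC to T24 it fell in WT while the change in iEZR_CA was not called. WT libraries had 7356, 7653 and 7713 normalized counts in ESCs, 3845, 3856 and 3569 at T24, and 2319, 2398 and 2454 at T48. iEZR_CA libraries had 4376, 4395 and 4501 in ESCs, 4577, 4411 and 4569 at T24, and 2227, 2315 and 2267 at T48. WT ESCs thus stood above all other groups, and in iEZR_CA the ESC and T24 ranges overlapped. From ESC to T24 Vim fell by 1.02 on the log2 scale in WT and moved by 0.03 ± 0.030 in iEZR_CA (edgeR adjusted p = 0.47), a difference of 1.05 ± 0.042 (edgeR adjusted p = 1.1e-31). The line difference was −0.78 ± 0.030 in ESCs (adjusted p = 4.5e-34), 0.26 ± 0.030 at T24 (adjusted p = 1.5e-11) and −0.07 ± 0.033 in T48 libraries (adjusted p = 0.07, called with DESeq2 size factors at −0.073 or when at least 10 counts were required in every library at −0.083). That last difference was also called, at −0.075 to −0.10, without any of 7 single libraries, namely the second or the third WT ESC, the first WT T24, the first WT T48 and the second iEZR_CA library of each stage.

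Zeb2 (ENSMUSG00000026872, chr2:44983632-45117395, minus strand) rose late in both lines. It had 7.87, 8.42 and 17.9 normalized counts in WT ESCs, 27.7, 29.3 and 34.7 at T24, and 305, 331 and 414 at T48. In iEZR_CA it had 5.54, 5.02 and 5.60, then 9.44, 6.08 and 8.44, then 148, 138 and 145. WT was higher at each stage without overlap, and the iEZR_CA T24 level overlapped the WT ESC level. Between the lines Zeb2 differed by −1.93 ± 0.32 at T24 (edgeR adjusted p = 2.6e-07) and by −1.29 ± 0.10 in the T48 libraries (adjusted p = 1.3e-17). The ESC difference was −1.11 ± 0.44 (edgeR adjusted p = 0.028) and rested on few counts: it was −0.61 and not called without the third WT ESC library, and was not called without the first (−1.13) or the second (−1.05) iEZR_CA ESC library or with spike-in scaling (−1.05). From ESC to T48 Zeb2 rose by 4.90 ± 0.17 in WT and by 4.72 ± 0.25 in iEZR_CA, and the difference between these, −0.19 ± 0.53, was not called.

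The transcription factors of epithelial-mesenchymal transition did not move as a block. Of 10 such genes 7 were tested, and in ESCs of iEZR_CA 1 was higher and 3 lower, with 2 and 2 at T24 and 3 and 3 at T48. With spike-in scaling 1 of them was called in ESCs. Zeb1, the paralog of Zeb2, went the other way through exit. It had 726, 712 and 741 normalized counts in WT ESCs, 629, 622 and 632 at T24, and 105, 134 and 149 at T48, against 781, 808 and 825, then 834, 829.6 and 816, then 555, 621 and 542 in iEZR_CA. The WT libraries at T48 stood far below all others, and the line difference was 2.17 ± 0.080 at T48 (edgeR adjusted p = 6.0e-35) and 0.40 ± 0.056 at T24 (adjusted p = 5.5e-09). Snai1, a repressor of Cdh1, was higher in iEZR_CA at T24 (1.49 ± 0.17) and T48 (0.86 ± 0.16), with T24 means of 94.3 against 30.5. Tcf4, the factor with the highest mean count, differed by −0.23 ± 0.045 at T24 and −0.20 ± 0.047 at T48, calls that did not hold with spike-in scaling (−0.16 and −0.17).

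Mesenchymal matrix and cytoskeleton genes, of which 10 of 13 were tested, had 2 higher and 4 lower in ESCs of iEZR_CA, with 6 and 3 at T24 and 3 and 6 at T48. Fn1 (fibronectin), with the highest mean count, was higher at the 3 stages by 0.36 ± 0.055, 0.36 ± 0.056 and 1.16 ± 0.058, and Sparc, a matrix glycoprotein, by 0.72 ± 0.027 in ESCs and 1.06 ± 0.029 at T24. Mmp14, a membrane metalloprotease, was lower at all 3 (−1.89 ± 0.14, −1.38 ± 0.090 and −0.93 ± 0.11). Pdgfrb, a growth factor receptor of mesenchymal cells, was higher at T24 (1.49 ± 0.21) and lower in ESCs (−0.44 ± 0.12) and at T48 (−0.48 ± 0.21, edgeR adjusted p = 0.038). With spike-in scaling it was not called in ESCs (−0.37) or at T48 (−0.48). The T48 call was also lost with no filter on low counts (−0.45), with the DESeq2 Wald test (−0.49), without the first (−0.35) or the second (−0.42) WT T48 library and without the second iEZR_CA T48 library (−0.31). The 7 fibroblast markers had a summed level of 43.0 ± 9.08, 69.6 ± 7.71 and 608 ± 31.5 in WT and 52.4 ± 8.32, 56.6 ± 7.19 and 396 ± 40.7 in iEZR_CA. Dcn, the one with the highest mean count, had 0 counts in every ESC library and reached 227 ± 14.4 in WT and 331 ± 30.1 in iEZR_CA at T48, while Postn was at the floor in all 6 groups. Of the 4 markers tested, all 4 rose from T24 to T48 in WT, while in iEZR_CA Dcn and Col1a2 rose and Thy1 (−0.34 ± 0.24) and Col1a1 (0.25 ± 0.30) were not called. Between the lines at T48, Dcn was higher in iEZR_CA and the other 3 were lower, with means of 10.6 against 200.3 for Col1a2, 25.5 against 128 for Thy1 and 16.4 against 50.6 for Col1a1. The part of such cells in the rise of Zeb2 was not tested. Primitive endoderm markers summed to 251, 154 and 317 in WT and 774, 405 and 247 in iEZR_CA, but in ESCs the sum followed Dab2, with 631 in iEZR_CA and 45.2 in WT. Of these 7 markers, Dab2 and Gata6 were higher in iEZR_CA ESCs, Gata4 (17.4 against 97.5) and Sox7 were lower, and 3 were not called.

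Within each line, most of the 9 tested genes changed at each step of exit. In WT, 6 rose and 2 fell from ESC to T24 (65.4% of all genes tested were called, 31.8% higher and 33.6% lower, and 20.8% by more than 2-fold), 6 rose and 2 fell from T24 to T48 (65.7%, 32.8% and 32.9%, and 20.6% by more than 2-fold), and 8 rose and only Vim fell from ESC to T48 (74.5%, 37.1% and 37.4%, and 31.3% by more than 2-fold). In iEZR_CA, 6 rose and only Cdh1, whose falls over both steps were not called with spike-in scaling, fell from ESC to T24 (56.0%, 27.1% and 28.9%, and 14.9% by more than 2-fold), 5 rose and 4 fell from T24 to T48 (59.6%, 29.6% and 30.0%, and 14.5% by more than 2-fold), and 6 rose and 3 fell from ESC to T48 (70.1%, 35.2% and 35.0%, and 26.1% by more than 2-fold). Changes of more than 2-fold were found for 6, 4 and 6 of the 9 genes over these intervals in WT and for 3, 4 and 5 in iEZR_CA. With spike-in scaling far smaller shares of all genes were called over both steps of exit in iEZR_CA (counts at the end). Cdh2, Cdh3, Epcam, Esrp1, Krt18 and Zeb2 were the 6 genes that rose from ESC to T48 in both lines, and Vim fell in both. Cdh1 and Krt8 were called in opposite directions over that interval, with 0.12 ± 0.026 for Cdh1 and 1.79 ± 0.15 for Krt8 in WT against −0.51 ± 0.026 and −0.50 ± 0.13 in iEZR_CA, neither of the latter called with spike-in scaling (−0.26 and −0.28). The comparisons with ESC share the ESC libraries of each line.

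Tested as a line-by-time interaction from ESC to T24, 5 of the 9 genes differed between the lines in their change, where 38.3% of all genes tested were called (21.5% higher and 16.9% lower, and 8.50% by more than 2-fold, as for 3 of the 9). With spike-in scaling 3 of the 9 genes were called, and a far smaller share of all genes (counts at the end). The change on the log2 scale was more positive in iEZR_CA for Vim and Krt8 (1.16 ± 0.23) and less positive for Epcam, Cdh1 (−0.23 ± 0.036, not called with spike-in scaling at −0.21) and Cdh3 (−0.15 ± 0.056, edgeR adjusted p = 0.022). The Cdh3 call was lost with spike-in scaling (−0.13), with no filter on low counts (−0.13), without the second (−0.12) or the third (−0.14) WT ESC library, without the second WT T24 library (−0.14), without the first iEZR_CA ESC library (−0.13) and without the third iEZR_CA T24 library (−0.13). From ESC to T48, 7 of the 9 genes differed, where 45.8% of all genes were called (25.7% higher and 20.0% lower, and 13.3% by more than 2-fold, as for 2 of the 9). The share of all genes called over this interval was also far smaller with spike-in scaling. Krt8 (−2.29 ± 0.20) and Krt18 (−2.12 ± 0.19) had the largest of these, followed by Cdh2, Vim (0.72 ± 0.044), Cdh1 (−0.63 ± 0.036), Epcam (−0.59 ± 0.060) and Cdh3 (−0.44 ± 0.059, not called with spike-in scaling at −0.45). Cdh20, described only, had −3.58 at T24 and −2.10 at T48, the latter with a WT T48 group under the floor.

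**Figure D4:**
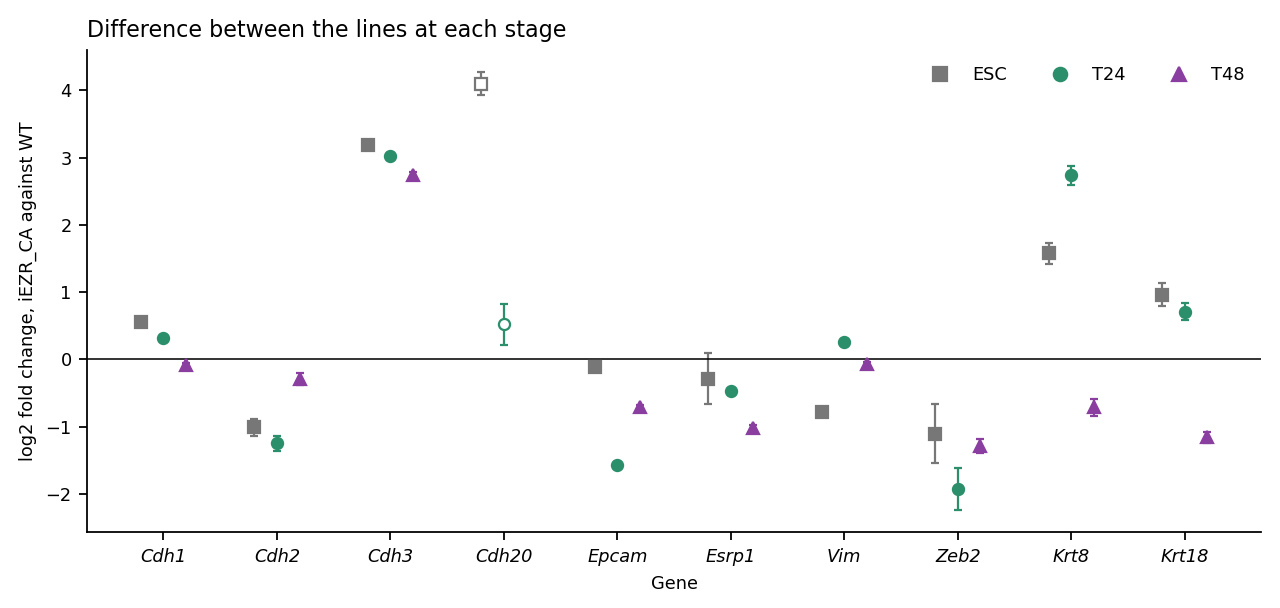
Log2 fold change of iEZR_CA against WT (vertical axis) for the 10 genes at ESC, T24 and T48, with error bars for the SE of the fit over 18 libraries. Open symbols mark Cdh20, which has no test and no T48 point because WT was under the floor there. Cdh3 stays above 2.7 at each stage, and Krt8 and Krt18 are above 0 in ESCs and at T24 and below 0 at T48.

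The genes whose pattern over the 18 libraries was most like that of 4 of the genes were found among 12801 tested genes with a mean of at least 50 normalized counts, by Pearson's r of log2(normalized count + 1). The libraries fall into 6 groups, so r here mostly reflects 6 group levels and is a description. With r taken over the 6 group means instead, 3 of the 5 genes were shared for Cdh1, 2 for Cdh2, 3 for Cdh20 and 3 for Vim. For Cdh1 they were Phldb2 (r = 0.98), Wwc1, Pramef8, Wdr11 and Gpr85. For Cdh2 they were Ccdc137 (0.98), Acvr2b, Atad3a, Zcchc3 and Nudt19. For Cdh20 they were Cetn3 (0.97), Gm8515, Htr1b, Pam and Kcmf1, and for Vim they were Dlgap3 (0.99), Cxxc5, Efna4, Gm48898 and Trim41. Pam, picked here for its likeness to Cdh20, had 1521 normalized counts in iEZR_CA ESCs and between 270.3 and 499 in the other groups.

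The lines also differed in how reads were accounted for. Reads set aside for low alignment quality made up 0.889% to 1.02% of an iEZR_CA library and 0.519% to 0.612% of a WT library, with no overlap over all 18 libraries. The share of reads assigned to genes was lower in iEZR_CA without overlap within each stage, at 75.8% to 76.2% against 77.3% to 77.9% in ESCs, 75.7% to 76.2% against 76.6% to 76.7% at T24 and 74.9% to 75.2% against 75.9% to 76.7% at T48. Unaligned reads were the larger share in iEZR_CA without overlap in ESCs (13.2% to 13.4% against 12.4% to 12.8%) and at T48 (13.8% to 14.1% against 13.6% to 13.7%), reads in no annotated feature in ESCs (4.18% to 4.31% against 3.54% to 3.67%), and reads aligned to several places at T24 (0.124% to 0.148% against 0.0761% to 0.0894%) and at T48 (0.151% to 0.169% against 0.0885% to 0.121%). The part of these shares in the differences between the lines was not tested.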

How the data were processed

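Libraries were prepared from polyadenylated RNA with ERCC spike-ins. The values used are the read counts per gene that the authors deposited, which per the methods and processing notes came from reads trimmed with Trim Galore 0.6.5, aligned to mm10 with GSNAP and counted with HTSeq on Ensembl release 81, with reads that map to several places not counted. Libraries held 14365544 to 43381579 reads, of which 10940752 to 33276622 were assigned to genes. The 92 spike-in rows and 5 summary rows (unaligned reads, 12.4% to 14.1% of a library, being the largest) were left out of library sizes and tests. Groups were taken from the labels, which do not say whether the 3 libraries of a group came from separate cultures. The study's figure legends call them independent biological replicates. P-values measure the spread between these libraries. No library pair agreed within sampling noise (chi-square per degree of freedom 1.55 to 3.33), so none was counted as deposited 2 times.

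Counts were tested with edgeR 4.0.16 (R 4.3.3, TMM, its default filter by expression, robust quasi-likelihood F test, 18 libraries, 12 residual degrees of freedom), with Benjamini-Hochberg adjustment over 18469 genes and SE taken as the fold change divided by the square root of F. Normalized counts used DESeq2 1.42.0 size factors. Lengths and positions came from GENCODE M21 (GRCm38) and promoter windows from RefSeq. The code was tested on simulated data. Alternatives were DESeq2 size factors, spike-in scaling, no filter on low counts, at least 10 counts in every library, the DESeq2 Wald test, only the groups compared, and leaving out each library. The genes, the related lists and the tests were chosen with earlier results of these data known. Named genes of each related list were the 2 with the highest mean count and the 2 with the largest line difference among genes with a mean of at least 50. A gene that this rule names is not reported here.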

Additional observations from a re-analysis of the deposited data

Results flagged for a closer look

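The change from ESC to T24 differed between the lines, by the interaction term of the edgeR fit, for Epcam (−1.46), Krt8 (1.16), Vim (1.05), Cdh1 (−0.23) and Cdh3 (−0.15), all on the log2 scale as iEZR_CA minus WT. The change from ESC to T48 differed in the same way for Krt8 (−2.29), Krt18 (−2.12), Cdh2 (0.72), Vim (0.72), Cdh1 (−0.63), Epcam (−0.59) and Cdh3 (−0.44). For Krt8 the sign of the difference was positive at T24 and negative at T48. The calls of Cdh1 and Cdh3 at T24 were lost with spike-in scaling (−0.21 and −0.13), as was that of Cdh3 at T48 (−0.45). The Cdh3 call at T24 was also lost with no filter on low counts (−0.13) and without any 1 of 5 single libraries (−0.14 to −0.12). These interactions share the ESC libraries.

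Outside the gene counts, reads set aside for low alignment quality had a median share of 0.955% in the iEZR_CA libraries and of 0.569% in the WT libraries, with no overlap between the 9 libraries of each line.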

How the results depend on the processing

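Scaling to the spike-ins was the setting that moved most. It raised the median change of all genes by up to 0.27 on the log2 scale (0.13 from ESC to T24 and 0.27 from ESC to T48 in WT, 0.14 and 0.26 in iEZR_CA), and called 5506, 7129 and 7229 genes between the lines at the 3 stages where 10058, 11253 and 11282 were called as reported, 6593 against 10340 and 6931 against 11015 for the 2 steps of exit in iEZR_CA, and 2416 against 7081 and 3881 against 8452 for the interactions at T24 and T48. The share of calls that were higher moved from 50.6% to 61.1% between the lines at T24, from 48.6% to 61.6%, 49.9% to 61.8% and 49.8% to 66.3% in WT (ESC to T24, T24 to T48, ESC to T48), from 48.4% to 68.9% and 50.1% to 69.4% in iEZR_CA (ESC to T24, ESC to T48), and from 56.0% to 68.5% for the interaction at T24. Under it 3 of the 9 genes, not 5, were called for the interaction at T24, and Cdh1 from ESC to T24 in WT was 0.0031 in place of −0.13. It called 5 classical cadherins at T48 (8 as reported), 1 of the other cadherins in ESCs (2), 3 adherens junction genes in ESCs (7), 2 desmosome genes in ESCs (4) and 4 at T48 (7), 7 tight junction genes in ESCs (11) and 5 at T24 (9), 6 epithelial regulators in ESCs (11) and 1 transition factor in ESCs (4). The Ezr ratios were 2.18, 2.83 and 1.68. The cause was not tested.

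Requiring 10 counts in every library left fewer genes to test, with 4 classical cadherins called at T48, 0, 1 and 1 of the other cadherins at the 3 stages and 2 keratins at each stage. The other cadherins called in ESCs were 1 with no filter and 0 with the DESeq2 Wald test. With the longest transcript as the length, the Cdh3 share was 4.15% in WT at T48, 14.6% in iEZR_CA ESCs and 34.8% in iEZR_CA at T24, and the Cdh2 share, which moved more, was 0.720%, 1.16% and 1.09% in WT and 0.217%, 0.279% and 0.745% in iEZR_CA at the 3 stages (0.447%, 0.724%, 0.678%, 0.134%, 0.171% and 0.460% as reported).

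Leaving out 1 library at a time gave 0 to 2 other cadherins called in ESCs, 4 to 7 desmosome genes at T48 (4 without the first WT T48 library) and an Ezr ratio at T48 of 1.57 to 1.64. The uncalled interaction of Esrp1 at T24 ranged from −0.41 to 0.090 and was 0.090 without the second WT ESC library and 0.018 without the second iEZR_CA ESC library, and that of Zeb2 at T48 ranged from −0.69 to 0.032, and was 0.032 without the second WT ESC library. Of the values of the 10 genes under the settings that keep all libraries, 607 kept their direction and side of the threshold, 12 lost a call, 2 gained one, 1 changed sign (Cdh1, above) and 1 of the untested Cdh20 moved by more than its spread. With 1 library left out, 1948 were kept, 10 lost a call, 12 gained one, 3 changed sign (Esrp1 and Zeb2, above) and 7 of Cdh20 moved. Of the values named from the related lists, 390 kept theirs and 35 lost a call under those settings, as did 24 when 1 library was left out. No paired analysis was run, because the labels give the well of a plate and no replicate number that ties libraries together. With about 10 counts per ESC library, Esrp1 and Zeb2 limit what can be said of their change from ESC.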
